A study of Trichoderma reesei with 9 samples.

Results

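The 3 Δvps13 libraries of the filamentous fungus Trichoderma reesei were compared with the 3 libraries of their parent strain, Rut-C30, by RNA sequencing, gene by gene and library by library. These 6 libraries were taken from a series of 9 by their strain labels, and all 10348 genes of the deposited count table entered the comparison, of which 8718 passed the filter on low counts and were tested. Vps13 is a very large protein that, in budding yeast, moves lipids between membranes at contact sites and is needed for correct sorting of vacuolar and Golgi proteins. T. reesei secretes large amounts of cellulases and hemicellulases, which pass through the endoplasmic reticulum (ER) and Golgi on their way out of the hypha. The comparison asks what the loss of a vacuolar sorting gene does to the transcriptome while these enzymes are being made.

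Δvps13 is a deletion made in Rut-C30, and the labels call Rut-C30 itself the wild type. Rut-C30 is a cellulase-hyperproducing strain obtained by mutagenesis and carries a truncated copy of cre1, the carbon catabolite repressor gene, so both groups share that background. Mycelia of both strains were sampled after 96 h with Avicel, a microcrystalline cellulose that induces cellulase genes, and poly-A RNA was sequenced. The labels do not say whether the 3 libraries of a strain came from separate cultures, nor how many Δvps13 clones were used, so p-values measure only the spread between these libraries. In bulk RNA, fewer cells of a kind and less RNA per cell cannot be told apart. The deletion could not be checked at the transcript level, since 0 genes of the table are named or described as vps13. Another 14 genes are described only as vacuolar sorting protein, and their log2 fold changes (Δvps13 over wild type) lay between -0.80 and 0.54.

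Depth was similar in all 6 libraries, with 12127372 to 13493219 counts in Δvps13 and 12399135 to 13248683 in wild type. The 3 Δvps13 libraries differed far more from each other than the wild-type libraries did. Across genes, Pearson's r of log2 CPM (a count relative to the scaled library size) was 0.961 between Δvps13 replicates 1 and 2, 0.889 between replicates 1 and 3, and 0.933 between replicates 2 and 3, against 0.984 to 0.99 among the wild-type libraries. The median standard deviation of a gene within its group was 0.496 log2 units in Δvps13 and 0.188 in wild type. Along the first principal component (53.3% of the variance), Δvps13 replicates 1 and 2 stood at 67.8 and 39.5, while replicate 3 stood at -18.8, near the wild-type libraries at -30.8 to -28.6. Replicate 3 was set apart on the second component (28.1% of the variance), at -59.2, where the other Δvps13 libraries stood at 12.9 and -9.07 and the wild-type libraries at 14.2 to 21.7. The share of counts held by the top 10 genes was 16.5%, 19.1% and 23.5% in Δvps13 replicates 1, 2 and 3, and 15.2% to 16.5% in wild type. The scaling factors (TMM, trimmed mean of M values) were 1.21, 0.838 and 0.694 in Δvps13 and 1.07 to 1.19 in wild type.

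To separate shared from single-library differences, each Δvps13 library was set against the mean of the 3 wild-type libraries on the log2 CPM scale. Replicate 1 was at least 2-fold away for 2603 genes (29.9% of those tested), replicate 2 for 1792 genes (20.6%) and replicate 3 for 1621 genes (18.6%). Each wild-type library, set against the other wild-type libraries, was that far away for 89 to 176 genes. A gene was counted as different in all 3 libraries when each of them was at least 2-fold away on the same side and outside the wild-type range. By that measure 131 genes (1.5% of those tested) were higher and 234 genes (2.68%) were lower in all 3 libraries. It was counted as carried by 1 library when that library was 2-fold away and the others were within 0.5 log2 units of the wild-type mean. Replicate 1 alone carried 350 genes (167 higher, 183 lower), replicate 2 alone 99 (41 higher, 58 lower) and replicate 3 alone 263 (98 higher, 165 lower), so that more genes, 712 in all, were carried by a single library than were shared by all 3. Replicates 1 and 2 together, without replicate 3, carried another 101 higher and 330 lower genes, while replicates 1 and 3 carried 40 and replicates 2 and 3 carried 65. In 214 genes at least 1 Δvps13 library was 2-fold higher and another 2-fold lower than wild type, and in 8 of these it was replicates 1 and 2 that stood on opposite sides. A further 2177 genes (25.0% of those tested) had at least 1 library 2-fold away and outside the wild-type range but fit none of these patterns. The patterns thus leave out much of the 4004 genes with such a library, and their counts depend on the 0.5 limit.

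**Figure D1:**
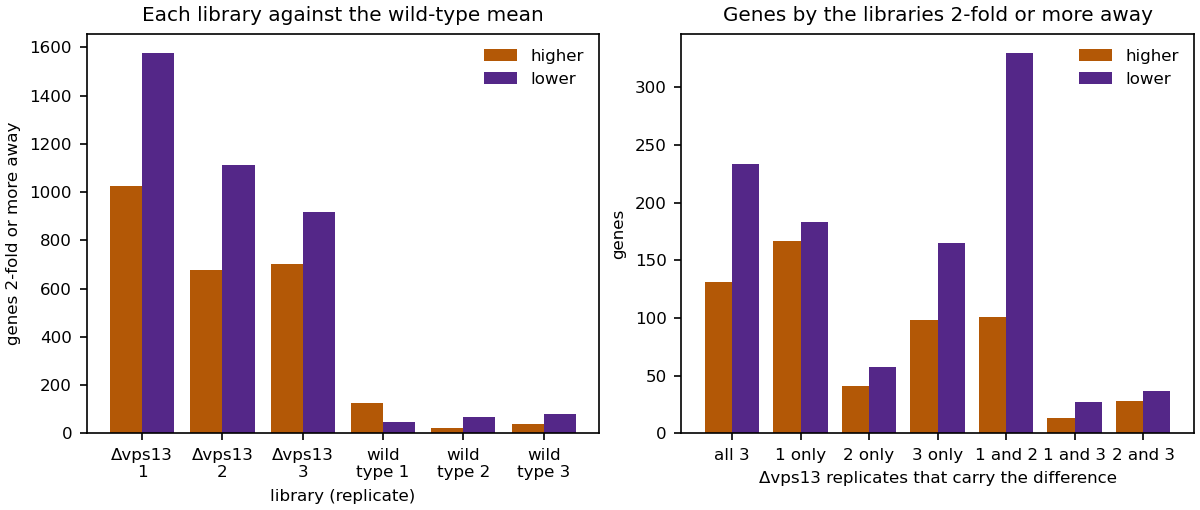
Number of genes (vertical axes) at least 2-fold higher or lower than wild type. Left, each library on its own, with the wild-type libraries set against one another. Right, genes sorted by which Δvps13 replicates carry the difference, without the 214 genes with libraries on opposite sides and the 2177 that fit no pattern. The Δvps13 libraries each have at least 1621 such genes, the wild-type libraries at most 176, and replicates 1 and 2 share more lower genes (330) than all 3 libraries do (234).

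In edgeR's quasi-likelihood test over the 6 libraries, 298 genes passed a Benjamini-Hochberg adjusted p of 0.05 (3.42% of those tested). Of these, 154 rose (1.77%) and 144 fell (1.65%) in Δvps13. The counts of calls in each gene list below are to be read against these shares. Scaling by library totals alone gave 63 higher and 452 lower genes, and moved the median log2 fold change of all genes to -0.26, against 0.04 with TMM. At an unadjusted p under 0.05 there were 1971 genes. Most called genes had shared differences: 228 of the 298 genes (100 higher, 128 lower) were 2-fold away in all 3 Δvps13 libraries, 59 in 2, 9 in 1 and 2 in 0. Of the 365 genes 2-fold away in all 3 libraries, 137 did not pass the test. Of the 712 genes carried by 1 library, 0 passed it, with 22 at an unadjusted p under 0.05 and 0 in DESeq2. That was nearly fixed in advance, since this class is defined by a wide spread within Δvps13 and a small mean difference. Of the 431 carried by replicates 1 and 2, 0 passed in edgeR, with 188 at an unadjusted p under 0.05 and 54 in DESeq2. Gene by gene, the Δvps13 and wild-type libraries did not overlap for 2632 genes (30.2%).

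The calls depended on which libraries were in the fit, in an unequal way. Without Δvps13 replicate 3 all 298 stayed past the threshold, without replicate 1 there were 264, and without replicate 2, which lay between the other Δvps13 libraries on both components, 29. Without wild-type replicate 2 there were 6, and without wild-type replicate 1 or 3 there were 0, with adjusted p of at least 0.0597 and 0.0663. In each of these 6 fits all 298 genes kept their direction and an unadjusted p under 0.05. The whole count moved to 479 without Δvps13 replicate 1, 30 without replicate 2 and 2692 without replicate 3.

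Among genes higher in all 3 Δvps13 libraries, those with the largest shared differences included genes for plant cell wall enzymes, nutrient transporters and a homeobox factor. TRIREDRAFT_54219, described as a carbohydrate esterase of family 5 (a family that holds acetyl xylan esterases and cutinases), had 132, 18.3 and 31.5 CPM in Δvps13 replicates 1, 2 and 3, against 3.87, 1.40 and 1.28 CPM in wild type. As the rule for choosing this group fixed, every Δvps13 library was above every wild-type one. Replicate 1 was several times above the other Δvps13 libraries. The log2 fold change was 4.78 ± 0.83 (SE, n = 3 each, edgeR adjusted p = 0.0303), 3.49 without replicate 1 (adjusted p = 0.0179) and 5.49 without wild-type replicate 1 (adjusted p = 0.126). A predicted protein with a fatty acid elongase (ELO) domain, TRIREDRAFT_21908, showed the same order of libraries, at 187, 51.4 and 70.4 CPM in Δvps13 against 7.22, 8.88 and 7.62 CPM in wild type. Its log2 fold change was 3.70 ± 0.49 (edgeR adjusted p = 0.0164) and 2.95 without replicate 1. The homeobox gene TRIREDRAFT_121074, a DNA-binding protein by its domain, was likewise highest in replicate 1, at 135, 43.3 and 40.5 CPM in Δvps13 against 9.95, 6.93 and 10.8 CPM in wild type. Its log2 fold change was 2.98 ± 0.50 (edgeR adjusted p = 0.0266), and 2.19 without replicate 1.

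TRIREDRAFT_103049, a glycoside hydrolase of family 28 (pectin-degrading enzymes), was instead highest in replicate 3. It had 32.0, 27.1 and 116 CPM in Δvps13 against 7.99, 5.32 and 7.02 CPM in wild type, a log2 fold change of 3.10 ± 0.57 (edgeR adjusted p = 0.0328) that was 2.14 without replicate 3. The gene whose Δvps13 libraries lay closest together was TRIREDRAFT_123659, described as a cell wall protein. Its levels were 26.8, 27.8 and 29.8 CPM in Δvps13 and 6.21, 5.25 and 4.68 CPM in wild type, so the 3 libraries were 2.29, 2.35 and 2.45 log2 units above the wild-type mean. The log2 fold change was 2.38 ± 0.25 (edgeR adjusted p = 0.00926). Among transporters, the lactate/pyruvate carrier TRIREDRAFT_121441 had 369, 204 and 159 CPM in Δvps13 against 27.4, 32.8 and 33.7 CPM in wild type. The peptide transporter TRIREDRAFT_124002 had 60.6, 32.8 and 78.7 CPM in Δvps13 against 7.73, 7.34 and 9.89 CPM in wild type. The log2 fold changes of these transporters were 2.96 ± 0.35 and 2.78 ± 0.35 (edgeR adjusted p = 0.0125 and 0.0131). Without Δvps13 replicate 2, 5 of the 10 described genes that head this group (these and TRIREDRAFT_49976, cel12a, TRIREDRAFT_120229 and axe1, given with their families) kept an adjusted p under 0.05 (range 0.0298 to 0.0698). Without wild-type replicate 1, 2 or 3 none of the 10 did, with adjusted p of 0.0710 to 0.206 and log2 fold changes of 1.95 to 5.49.

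Several of the genes lower in all 3 Δvps13 libraries were lowest in replicate 1 and least low in replicate 3. Mn superoxide dismutase TRIREDRAFT_66345, which detoxifies superoxide, had 9.07, 14.4 and 20.7 CPM in Δvps13 against 102, 78.6 and 106 CPM in wild type (log2 fold change -2.71 ± 0.33, edgeR adjusted p = 0.0125). TRIREDRAFT_111750, described as a ferric reductase-like transmembrane component (a kind of protein that reduces iron at the cell surface), had 10.8, 16.7 and 22.2 CPM in Δvps13 against 94.4, 67.1 and 88.6 CPM in wild type. A cell wall mannoprotein, TRIREDRAFT_123475, had 161, 227 and 317 CPM in Δvps13 against 805, 995 and 1354 CPM in wild type. In all of these the highest Δvps13 library was well under the lowest wild-type one, a separation that the rule for choosing them required. The same order held for alcohol oxidase TRIREDRAFT_123978, at 17.1, 34.9 and 47.3 CPM in Δvps13 against 132, 149 and 172 CPM in wild type. It also held for the dehydrogenase gene TRIREDRAFT_123946, which the annotation links to cellulase signalling, at 12.6, 18 and 25.1 CPM in Δvps13 against 87.3, 81.8 and 94.7 CPM in wild type. Their log2 fold changes were -2.34 ± 0.31, -2.16 ± 0.36, -2.19 ± 0.36 and -2.25 ± 0.28, in that order of genes, with edgeR adjusted p of 0.0157, 0.0259, 0.0259 and 0.0131.

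Other genes of this group did not share that order. TRIREDRAFT_109235, a protein with a family 18 carbohydrate-binding module (a chitin-binding kind), had 0.894, 0.973 and 0.713 CPM in Δvps13 against 11, 9.79 and 12.2 CPM in wild type. The differences of the 3 Δvps13 libraries from the wild-type mean were -3.41, -3.30 and -3.68 log2 units. They rest on only 14, 11 and 6 counts, where the prior count of 2 draws values together. The log2 fold change was -3.65 ± 0.34 (edgeR adjusted p = 0.00658). The pheromone receptor TRIREDRAFT_64018, a G-protein coupled receptor for mating pheromone, had 3.77, 4.51 and 3.21 CPM in Δvps13 against 18.9, 19.7 and 18.9 CPM in wild type (log2 fold change -2.32 ± 0.27, edgeR adjusted p = 0.0125). The mating-type gene mata1, a regulator of sexual identity, had 4.73, 4.42 and 3.92 CPM in Δvps13 against 10.2, 10.4 and 12.2 CPM in wild type (log2 fold change -1.32 ± 0.28, edgeR adjusted p = 0.0444). Both mating genes were low in all 3 libraries to about the same extent. The other 2 tested genes of the mating list, of 4, did not pass the test.

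TRIREDRAFT_79677, described as a hexokinase (an enzyme type that phosphorylates hexose sugars), had 71.2, 109 and 68.6 CPM in Δvps13 against 297, 295 and 289.8 CPM in wild type (log2 fold change -1.83 ± 0.26, edgeR adjusted p = 0.0177). The named gene min1, whose product is described only as a predicted protein, had 2.75, 3.19 and 10.5 CPM in Δvps13 against 87.5, 89.6 and 96.2 CPM in wild type, with replicate 3 the least low. Its log2 fold change was -4.09 ± 0.51 (edgeR adjusted p = 0.0125) and -4.93 without replicate 3. TRIREDRAFT_77547, a family 1 glycosyltransferase, and an unnumbered gene model with a ribosomal protein L41 domain completed the group, at -2.22 ± 0.37 and -2.03 ± 0.40 log2 units. Without Δvps13 replicate 2, 3 of the 10 described lower genes kept an adjusted p under 0.05 (range 0.0391 to 0.13). Without wild-type replicate 2 there was 1, TRIREDRAFT_109235 (adjusted p = 0.0473), and without wild-type replicate 1 or 3 there were 0 (lowest 0.0597 and 0.0663).

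**Figure D2:**
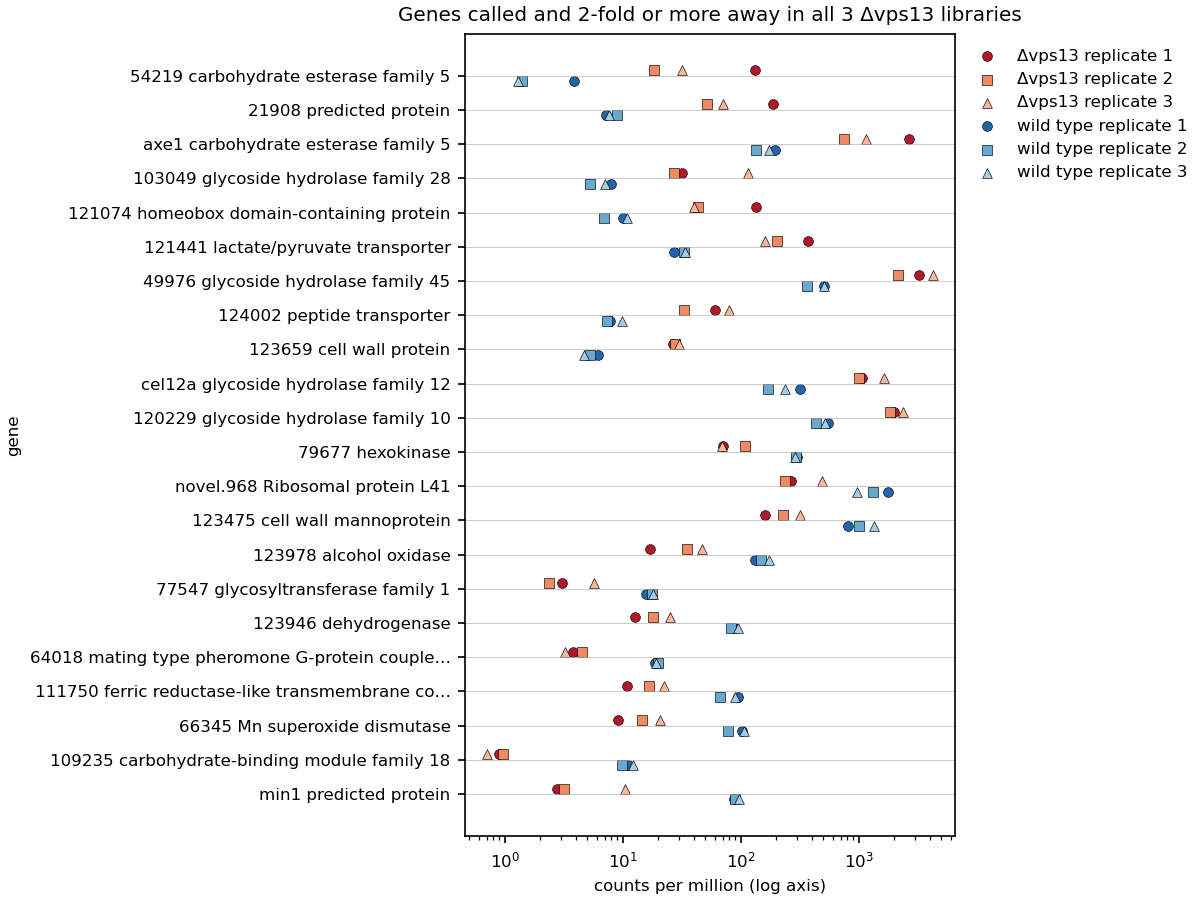
Normalised level of each gene in CPM (log axis) in the 3 Δvps13 libraries (red shades, upper point of each row) and the 3 wild-type libraries (blue shades, lower). Genes are those with the largest differences shared by all 3 Δvps13 libraries; numbers are TRIREDRAFT gene numbers. In every row the Δvps13 points lie clear of the wild-type points, as the rule that chose these genes fixes. TRIREDRAFT_54219 spreads from 18.3 to 132 within Δvps13.

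Cellulase genes were higher in Δvps13, and by unequal amounts in its libraries. The list held cellulases, lytic cellulose-active enzymes, expansins and the cellulase-associated genes cip1 and cip2, 15 genes tested. Together they took 8.05%, 6.83% and 10.2% of all counts in Δvps13 replicates 1, 2 and 3, and 3.16%, 2.58% and 3.07% in wild type. In 7 of the 15 genes all 3 Δvps13 libraries were at least 2-fold above wild type, and in 0 were all 3 at least 2-fold below. The adjusted test called 4 of the 15 higher and 0 lower (12 passed an unadjusted p under 0.05, 11 of them higher, and DESeq2 called 11 higher and 1 lower). The median log2 fold change of the list was 1.58, against 0.04 over all genes tested. Library by library, its median was 0.68, 1.32 and 2.24 log2 units above wild type in Δvps13 replicates 1, 2 and 3.

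The 4 genes that rose were TRIREDRAFT_49976, cip2, cel12a and TRIREDRAFT_123992. The family 45 endoglucanase gene TRIREDRAFT_49976 had 3267, 2134 and 4223 CPM in Δvps13 against 509.9, 363 and 505 CPM in wild type (log2 fold change 2.80 ± 0.39, edgeR adjusted p = 0.0177). The gene cip2, for a glucuronoyl esterase that cuts links between lignin and hemicellulose, had 2058, 768 and 1399 CPM in Δvps13 against 257, 162 and 219 CPM in wild type (2.73 ± 0.42, edgeR adjusted p = 0.0239). The expansin-family gene TRIREDRAFT_123992, whose kind of protein loosens cellulose without cutting it, had 7101, 6463 and 11526 CPM in Δvps13 against 1765, 1546 and 2041 CPM in wild type (2.23 ± 0.43, edgeR adjusted p = 0.0376). In these genes replicate 1 was as high as or higher than replicate 2, and cip2 was highest in replicate 1. The endoglucanase gene cel12a followed with 1073, 995 and 1627 CPM in Δvps13 against 317, 171 and 237 CPM in wild type (2.35 ± 0.36, edgeR adjusted p = 0.0226). The list's count of higher genes was 11 without Δvps13 replicate 1, 2 without replicate 2, 7 without replicate 3, and 0 without wild-type replicate 1, 2 or 3. With scaling by library totals it was 7, with 1 lower.

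On the TMM scale, the main cellobiohydrolases and several endoglucanases were ordered otherwise, lowest in Δvps13 replicate 1 and highest in replicate 3. On that scale they did not pass the adjusted test. The gene cel7a, for the most abundant cellulase, which releases cellobiose from chain ends, had 23626, 29704 and 48990 CPM in Δvps13 against 9382, 9765 and 11865 CPM in wild type. No Δvps13 library overlapped a wild-type one, but the spread within Δvps13 left the log2 fold change at 1.72 ± 0.55 (edgeR adjusted p = 0.118). TRIREDRAFT_72567, the family 6 gene of the table and a cellobiohydrolase by its family, had 17508, 25591 and 47218 CPM in Δvps13 against 6083, 4811 and 6231 CPM in wild type (2.40 ± 0.58, edgeR adjusted p = 0.0612). Without Δvps13 replicate 1 both passed, at adjusted p of 0.0212 and 0.0132. Without replicate 3 TRIREDRAFT_72567 passed at 0.0144 and cel7a had 0.0550. With scaling by library totals both were called, cel7a at 1.33 log2 units (edgeR adjusted p = 0.0215) and TRIREDRAFT_72567 at 1.97 (0.0108). Before scaling, cel7a had 369869, 335714 and 412493 counts in Δvps13 replicates 1, 2 and 3, so replicate 2 was then its lowest.

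The family 61 gene cel61b, for an oxidative cellulose-cleaving enzyme, had 2822, 4605 and 11835 CPM in Δvps13 against 2094, 1541 and 1957 CPM in wild type, or 0.61, 1.32 and 2.68 log2 units above the wild-type mean. The endoglucanase gene cel5a was 0.59, 1.04 and 1.88 log2 units above it, cel7b 0.68, 1.39 and 2.24, and cel61a 0.49, 1.00 and 1.92. In all of these, replicate 1 was less than 2-fold above wild type. Members with fewer counts went other ways. The family 12 gene TRIREDRAFT_77284 was below wild type in every Δvps13 library, at 44.5, 91.6 and 56.3 CPM against 116, 150.3 and 158 CPM (-1.14 ± 0.30, edgeR adjusted p = 0.0747). The endoglucanase gene cel5b was 2-fold higher in replicate 3 alone, and TRIREDRAFT_23115, of the expansin family, was 2-fold lower in replicate 1 alone. The family 61 gene TRIREDRAFT_27554 lay on both sides of wild type, at 0.256, 1.06 and 2.26 CPM in Δvps13 against 0.507, 1.40 and 1.36 CPM.

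**Figure D3:**
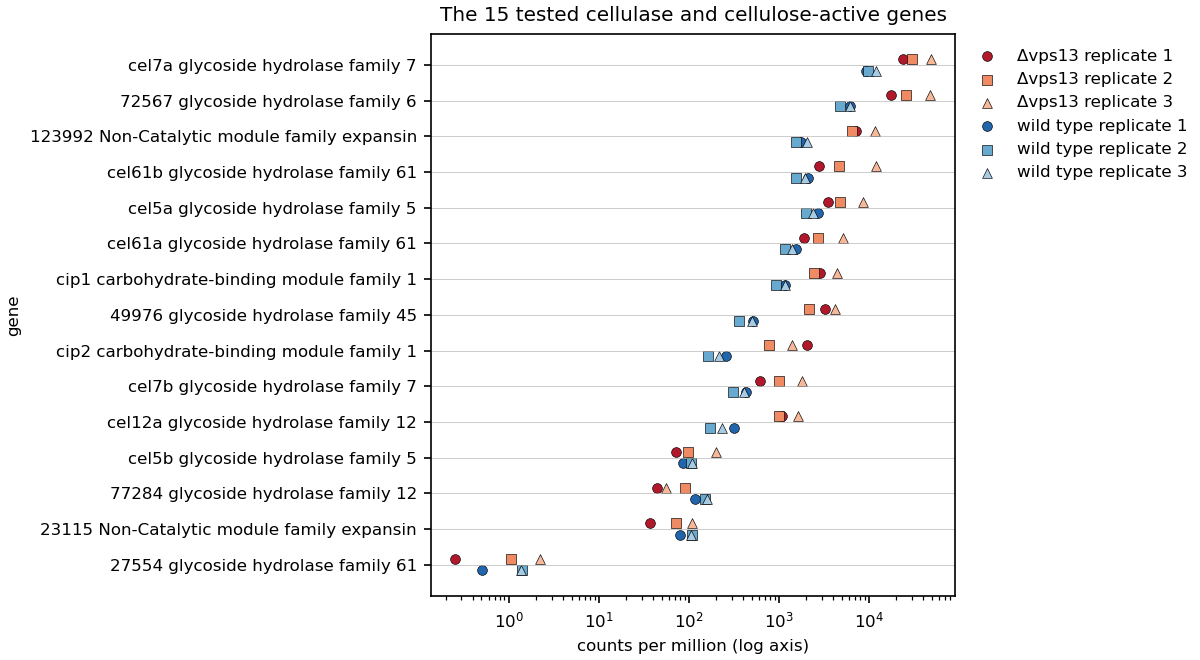
Normalised level in CPM (log axis) of the 15 tested cellulase and cellulose-active genes, in the 3 Δvps13 libraries (red shades, upper points) and the 3 wild-type libraries (blue shades, lower points), highest CPM at the top. The upper genes lie above wild type in Δvps13, with replicate 3 furthest to the right (48990 for cel7a) in all of them but cip2, while the 4 rows at the bottom overlap or lie below it.

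Known regulators of cellulase genes did not pass the test, and differed between the Δvps13 libraries. The activator gene xyr1 had 847, 1798 and 2602 CPM in Δvps13 against 878, 982 and 989 CPM in wild type, so replicate 1 was just below the wild-type libraries and the others above them. Its log2 fold change was 0.88 ± 0.42 (edgeR adjusted p = 0.251), and 1.21 without replicate 1 (adjusted p = 0.0319). The cre1 repressor gene had 567, 1107 and 1330 CPM in Δvps13 against 837, 691 and 813 CPM in wild type, replicate 1 below and the others above, and its log2 fold change of 0.36 ± 0.36 turned to -0.05 when libraries were scaled by their totals alone. The repressor gene ace1 was highest in replicate 2, at 573, 885 and 360.2 CPM in Δvps13 against 346, 472 and 439 CPM in wild type. Over the whole list of 106 tested transcription factor genes, 2 rose and 0 fell (15 and 12 at an unadjusted p under 0.05, 8 and 5 in DESeq2), with a median of 0.05 log2 units. Over all tested genes 1.77% rose and 1.65% fell. Those 2 were the homeobox gene above and the zinc-cluster gene TRIREDRAFT_76039, at 66, 49.7 and 35.3 CPM in Δvps13 against 21.4, 18.5 and 17.4 CPM in wild type (1.40 ± 0.27, edgeR adjusted p = 0.0385). With scaling by library totals TRIREDRAFT_76039 had an adjusted p of 0.139. Neither was called without Δvps13 replicate 2 or without any 1 wild-type library (adjusted p of at least 0.0698).

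Hemicellulase genes, for enzymes that cut xylan, mannan and their side chains, included some that were higher in all 3 libraries and some that were high in replicate 3 alone. Of 28 tested, 5 rose and 2 fell, 7 were at least 2-fold higher and 3 at least 2-fold lower in all 3 libraries, and the list's median was 0.32 log2 units. By library the median was -0.56, -0.21 and 1.17 log2 units in Δvps13 replicates 1, 2 and 3, so it was below wild type in 2 of them, and the fitted median turned to -0.15 with scaling by library totals. The acetyl xylan esterase gene axe1 had 2662, 749 and 1150 CPM in Δvps13 against 194, 135 and 172 CPM in wild type (3.19 ± 0.50, edgeR adjusted p = 0.0248, and 2.51 without replicate 1). The family 10 xylanase gene TRIREDRAFT_120229 was even across libraries, at 1989, 1823 and 2350 CPM in Δvps13 against 545, 431 and 516 CPM in wild type (2.05 ± 0.30, edgeR adjusted p = 0.0225). Its model overlaps TRIREDRAFT_120228 on the other strand by 15 bases, which averaged 3.4 CPM in Δvps13 and 2.73 CPM in wild type. The mannanase gene man5a had 657, 846 and 1795 CPM in Δvps13 against 299, 173 and 257 CPM in wild type (2.18 ± 0.44, edgeR adjusted p = 0.0395).

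TRIREDRAFT_69276, of family 30, also rose, by 1.63 ± 0.29 log2 units (edgeR adjusted p = 0.0318), and TRIREDRAFT_54219 was the fifth. The genes that fell were a family 36 galactosidase gene, TRIREDRAFT_64827, at 4.85, 7.70 and 10.6 CPM in Δvps13 against 22.2, 23.1 and 22.6 CPM in wild type, and a family 3 esterase gene, TRIREDRAFT_70021, at 1.72, 3.19 and 0.713 CPM in Δvps13 against 7.86, 12.5 and 8.76 CPM. By contrast, the family 54 arabinofuranosidase gene TRIREDRAFT_123283 was high in replicate 3 only, at 26.5, 32.6 and 194 CPM in Δvps13 against 30.4, 34.2 and 45.1 CPM in wild type. The family 62 gene TRIREDRAFT_76210 had 226, 208 and 989 CPM in Δvps13 against 330.0, 294 and 384 CPM in wild type, below the wild-type range in replicates 1 and 2 and above it in replicate 3. The family 35 gene TRIREDRAFT_80240 had 315, 358 and 1416 CPM in Δvps13 against 378, 434 and 541 CPM in wild type, ordered the same way. The last pair was picked after its values were seen. The list's count of higher genes was 1 without Δvps13 replicate 2 and 0 without wild-type replicate 1, 2 or 3. None of the 13 tested beta-glucosidase genes was called (3 at an unadjusted p under 0.05, 1 in DESeq2), and their medians by library were -0.22, 0.23 and 0.76. Among them cel3a was above wild type in every Δvps13 library, at 152, 221 and 562 CPM against 119, 81.6 and 110 CPM. Its log2 fold change was 1.59 ± 0.46 (edgeR adjusted p = 0.0956, DESeq2 adjusted p = 0.0115). In edgeR it passed without Δvps13 replicate 1 (0.0345) or 3 (0.0265), but not without replicate 2 (0.170).

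Secretory pathway genes were next. Of 38 tested genes for ER entry, folding and glycosylation, 3 rose and 0 fell (14 and 0 at an unadjusted p under 0.05, 9 and 0 in DESeq2). Their median was 0.40 log2 units, against 0.04 for all genes. On the TMM scale it was much alike in the 3 Δvps13 libraries, at 0.31, 0.33 and 0.44. Their share of all counts was graded instead, at 0.61%, 0.503% and 0.411% in Δvps13 replicates 1, 2 and 3 against 0.395%, 0.393% and 0.374% in wild type. With scaling by library totals the list's median was 0.11, against -0.26 for all genes. Protein disulfide isomerase gene pdi1, for the enzyme that forms disulfide bonds in secreted proteins, had 765, 948 and 886 CPM in Δvps13 against 279, 354 and 348 CPM in wild type (1.41 ± 0.26, edgeR adjusted p = 0.0354). The gene for sec62, a part of the ER import channel (TRIREDRAFT_30455), had 104, 95.4 and 109.9 CPM in Δvps13 against 48.4, 38.5 and 42.0 CPM in wild type (1.26 ± 0.20, edgeR adjusted p = 0.0248). TRIREDRAFT_121754, described as a component of the protein translocation complex, had 294, 254 and 288 CPM in Δvps13 against 133, 134 and 122 CPM in wild type (1.11 ± 0.21, edgeR adjusted p = 0.0373). The Δvps13 libraries of these genes stood close together and clear of wild type, a pattern that choosing called genes favours in advance. The ER chaperone gene bip1 was more spread, at 1001, 1605 and 1330 CPM in Δvps13 against 550.2, 544 and 594 CPM in wild type (1.22 ± 0.30, edgeR adjusted p = 0.0616). With scaling by library totals sec62 and TRIREDRAFT_121754 had adjusted p of 0.0955 and 0.121. The 3 calls were all lost without Δvps13 replicate 2 (adjusted p 0.0812 to 0.103) and without wild-type replicate 1 (0.126 to 0.198), 2 (0.206 to 0.23) or 3 (0.165 to 0.214).

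Genes of the trafficking machinery itself were not called. Over all tested genes the share called was 3.42%, which gives few calls in lists of this size. Vesicle transport, 87 genes tested, gave 0 calls in edgeR (15 at an unadjusted p under 0.05, 8 in DESeq2), and their medians by library were 0.30, 0.10 and -0.05. In the endosome and vacuole sorting list, 22 genes, the count was 0 (2 at an unadjusted p under 0.05, 0 in DESeq2), and 19 were within 2-fold of wild type in every Δvps13 library. Early endosomes carry small GTPases of the Rab5 kind, to which yeast Vps21 belongs, and a pair of genes has that description. TRIREDRAFT_122593 had 155, 203 and 235 CPM in Δvps13 against 135, 141 and 160.2 CPM in wild type, and TRIREDRAFT_123015 had 111, 115 and 136 CPM against 102, 95.5 and 115 CPM. Their log2 fold changes were 0.44 ± 0.24 and 0.21 ± 0.21 (edgeR adjusted p = 0.296 and 0.569), and the second turned to -0.11 with scaling by library totals. The 42 genes of lipid metabolism and transfer gave 1 call, lower, the phospholipase C gene TRIREDRAFT_60194, at 7.35, 10.2 and 11 CPM in Δvps13 against 19.5, 25.6 and 24.5 CPM in wild type (-1.29 ± 0.27, edgeR adjusted p = 0.0435). It was not called by limma on FPKM (adjusted p = 0.0597), without Δvps13 replicate 2 (0.123) or without any 1 wild-type library (at least 0.172).

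Ribosomal protein genes took a smaller share of the counts in each Δvps13 library, while few passed the test singly. Of 50 tested, 0 rose and 1 fell, the L41 gene model (0 and 15 at an unadjusted p under 0.05, 0 and 7 in DESeq2). That share was 1.59%, 1.13% and 1.35% of counts in Δvps13 replicates 1, 2 and 3 and 2.92%, 2.54% and 2.34% in wild type. On the TMM scale the list's median was -0.73, -0.64 and -0.20 log2 units by library, with replicate 3 nearest wild type. By share of counts it was replicate 1 that was nearest. The L41 model had 268, 235 and 489 CPM in Δvps13 against 1777, 1315 and 959 CPM in wild type (edgeR adjusted p = 0.0385, and 0.13 without Δvps13 replicate 2, 0.174, 0.206 and 0.151 without wild-type replicates 1, 2 and 3).

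**Figure D4:**
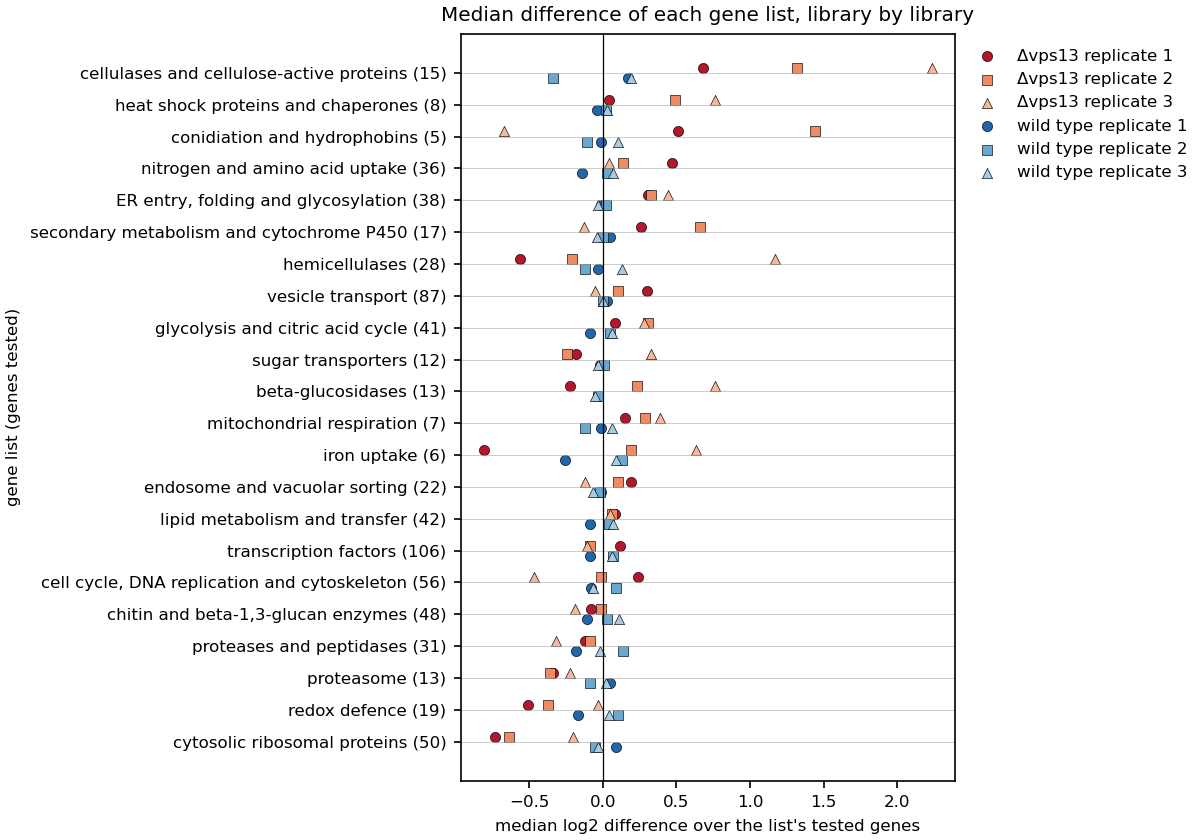
Median log2 difference (horizontal axis) of each gene list with at least 5 tested genes, library by library. Red points are Δvps13 libraries against the wild-type mean, and blue points are wild-type libraries against the other wild-type libraries; numbers in brackets are tested genes. Cellulases lie above 0 in all 3 Δvps13 libraries (0.68, 1.32 and 2.24), and hemicellulases, hydrophobins and iron uptake lie on both sides of 0. ER genes are even across the 3 libraries on this TMM scale, though not by share of counts.

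The list for glycolysis and the citric acid cycle held 41 tested genes, with medians of 0.08, 0.31 and 0.28 log2 units in Δvps13 replicates 1, 2 and 3, and 2 higher and 2 lower calls (11 and 6 at an unadjusted p under 0.05, 11 and 3 in DESeq2). Those that rose were a malate dehydrogenase gene, TRIREDRAFT_119896, at 975, 802 and 647 CPM in Δvps13 against 279, 242 and 237 CPM in wild type (1.68 ± 0.27, edgeR adjusted p = 0.0254), and idh2, for an isocitrate dehydrogenase subunit, at 178, 273 and 236 CPM against 122, 95.6 and 103 CPM (1.10 ± 0.24, edgeR adjusted p = 0.0497). Those that fell were the hexokinase above and a triose-phosphate isomerase-like gene, TRIREDRAFT_121789, at 29.5, 61.7 and 63.8 CPM in Δvps13 against 150.1, 141 and 133 CPM in wild type (-1.45 ± 0.31, edgeR adjusted p = 0.0436). The hexokinase is in this list by its description alone. The idh2 call was lost with median-ratio size factors (0.0502), library totals (0.116), no filter (0.0509) and a 10 CPM filter (0.0511). Without Δvps13 replicate 2 only the hexokinase of these 4 stayed called, and without wild-type replicate 1, 2 or 3 none did (adjusted p of at least 0.126).

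Single genes of carbon metabolism differed between the Δvps13 libraries without passing the test. Fructose-bisphosphatase gene TRIREDRAFT_65508, for a step of gluconeogenesis (the path from organic acids back to sugar), had 379.9, 437 and 86.9 CPM in Δvps13 against 68.6, 69.5 and 77.7 CPM in wild type, or 2.40, 2.60 and 0.28 log2 units above the wild-type mean (edgeR adjusted p = 0.0666). Phosphoenolpyruvate carboxykinase gene TRIREDRAFT_124115, for another step of that path, had 9316, 9070 and 2091 CPM in Δvps13 against 1495, 1417 and 1393 CPM in wild type, or 2.70, 2.66 and 0.54 log2 units. The aconitase gene TRIREDRAFT_77336, for an enzyme of the citric acid cycle, had 1608, 1634 and 581 CPM in Δvps13 against 538, 408 and 393 CPM in wild type. In all of these, replicates 1 and 2 were nearly equal and far above every wild-type library. The isocitrate lyase gene acu3, for the glyoxylate shunt, was graded instead, at 3430, 2237 and 1572 CPM in Δvps13 against 894, 859 and 851 CPM in wild type.

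The phosphoglycerate kinase gene pgk1, of glycolysis, had 2523, 5492 and 8229 CPM in Δvps13 against 3865, 5799 and 6318 CPM in wild type, and gpd1, for glyceraldehyde-3-phosphate dehydrogenase, had 6336, 12870 and 18591 CPM against 8350, 11277 and 13146 CPM. For both, replicate 1 was below and replicate 3 above all wild-type libraries, and the fitted log2 fold changes were 0.02 ± 0.51 and 0.21 ± 0.53 (edgeR adjusted p = 0.981 and 0.844). TRIREDRAFT_124115, acu3, pgk1 and gpd1 were picked after their values were seen, and the carboxykinase and acu3 did not pass the test (edgeR adjusted p = 0.0717 and 0.0682).

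Among the other genes named for replicates 1 and 2 together, the proteinase inhibitor gene TRIREDRAFT_72379 had the widest gap. It had 102, 274 and 10.9 CPM in Δvps13 against 11.7, 10.7 and 10.9 CPM in wild type, so replicate 3 was at the wild-type level. The cation-transporting ATPase gene TRIREDRAFT_81536 was 1.85 and 2.08 log2 units above the wild-type mean in replicates 1 and 2 and at -0.50 in replicate 3. On the lower side stood TRIREDRAFT_108477, of glycoside hydrolase family 13 (starch-degrading enzymes), at 12, 21.1 and 75.1 CPM in Δvps13 against 79.7, 88.9 and 101 CPM in wild type. The thiamine biosynthesis gene nmt1 had 35.9, 65.7 and 214 CPM in Δvps13 against 204, 267 and 303 CPM in wild type. The aminotransferase gene TRIREDRAFT_69228, whose description is that of a biotin synthesis enzyme, and the family 27 glycoside hydrolase gene TRIREDRAFT_72632 were 1.74 to 2.04 log2 units below in replicates 1 and 2 and within 0.12 of wild type in replicate 3. None of these 6 genes, nor the fructose-bisphosphatase and aconitase genes, passed the adjusted test.

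Genes carried by replicate 1 alone included regulators, transporters and membrane enzymes. Lanosterol 14-alpha demethylase, the ergosterol synthesis enzyme that azole antifungals block (TRIREDRAFT_75468), had 188, 531 and 628 CPM in Δvps13 against 577, 654 and 697 CPM in wild type. The zinc-cluster gene TRIREDRAFT_67483 had 38.3, 16.4 and 15.1 CPM in Δvps13 against 11.5, 10.1 and 13.5 CPM in wild type. The gene mkk1, described as a map kinase, had 76.2, 34.3 and 31.8 CPM in Δvps13 against 30.9, 26.4 and 25.4 CPM in wild type. In each, replicate 1 left the wild-type range by over 2-fold while the others stayed within 0.5 log2 units of the wild-type mean. For TRIREDRAFT_67483 and mkk1 those others still lay above the wild-type range.

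The propionyl-CoA synthase gene TRIREDRAFT_54870 was 1.47 log2 units higher in replicate 1 alone, the gaba permease gene TRIREDRAFT_72922 1.66 higher, and the family 3 glycoside hydrolase gene cel3c was at -1.43 log2 units. The glycoside hydrolase genes TRIREDRAFT_76852 (family 2) and TRIREDRAFT_74198 (family 92) were at -1.74 and -1.56 log2 units there. Nitrogen uptake genes, 36 tested, gave 2 calls, both higher and shared by the 3 libraries, the peptide transporter above and the amino acid transporter TRIREDRAFT_110813, at 90.6, 58.8 and 103 CPM in Δvps13 against 26.6, 26.3 and 32.3 CPM in wild type (1.57 ± 0.26, edgeR adjusted p = 0.0266). Another 4 of the list were higher in replicate 1 alone. Besides the gaba permease they were an ammonium permease (TRIREDRAFT_82095), a urea transporter (TRIREDRAFT_4950) and a cytosine-purine permease (TRIREDRAFT_52489), at 1.15, 2.08 and 1.63 log2 units. With scaling by library totals TRIREDRAFT_110813 had an adjusted p of 0.0604. Both called genes stayed called without any 1 Δvps13 library, and neither did without wild-type replicate 1, 2 or 3 (adjusted p of at least 0.092).

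Replicate 2 alone carried the fewest genes, 99. The RasGEF gene TRIREDRAFT_34726, for an activator of Ras GTPases, had 284, 826 and 263 CPM in Δvps13 against 248, 325 and 319 CPM in wild type. The tyrosine phosphatase gene TRIREDRAFT_25159 had 440.3, 865 and 447 CPM in Δvps13 against 284, 313 and 381 CPM in wild type. A peptidase gene of family M18, TRIREDRAFT_47127, and a glycoside hydrolase gene of family 55, TRIREDRAFT_70845, were 1.32 and 1.33 log2 units higher in that library. The glycosyltransferase gene TRIREDRAFT_104121 (family 58), lower in replicate 2 alone, had 13, 7.87 and 15 CPM in Δvps13 against 16.2, 17 and 16.2 CPM in wild type. Replicate 2 was 2-fold away in all of these, and the other Δvps13 libraries were within 0.5 log2 units of the wild-type mean, as the rule fixes. For TRIREDRAFT_25159 and TRIREDRAFT_104121 those other libraries still lay outside the wild-type range, on the same side as replicate 2.

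Hydrophobins are small proteins that coat aerial hyphae and spores, and 3 of their genes were highest in replicate 2 and lowest in replicate 3 of the Δvps13 libraries. The gene hfb2 had 3248, 7947 and 1420 CPM in Δvps13 against 3389, 2637 and 2660 CPM in wild type. The related gene hfb3 had 927, 2678 and 548 CPM in Δvps13 against 1018, 937 and 999 CPM in wild type. Replicate 2 was above and replicate 3 below all wild-type libraries in both. The class II hydrophobin gene TRIREDRAFT_106538 had 77.7, 231 and 4.39 CPM in Δvps13 against 7.03, 6.44 and 7.85 CPM in wild type. These hydrophobin genes were picked after their values were seen. The list of conidiation genes and hydrophobins, 5 tested, gave 0 calls (2 at an unadjusted p under 0.05, 1 in DESeq2) and took 0.529%, 0.921% and 0.144% of counts in Δvps13 and 0.40% to 0.534% in wild type.

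The described genes named for replicate 3 alone had varied roles. Beside the family 54 gene above, the pectinase-family gene TRIREDRAFT_112140 (family 28) had 18.1, 21.1 and 70.2 CPM in Δvps13 against 19.6, 13.9 and 15 CPM in wild type. An unnumbered gene model with a short-chain dehydrogenase domain had 14.7, 16.5 and 92.5 CPM in Δvps13 against 20.7, 17.8 and 13.8 CPM in wild type. The bZIP transcription factor gene TRIREDRAFT_120365 had 36.4, 39.6 and 117 CPM in Δvps13 against 25.8, 26.1 and 53.7 CPM in wild type, where the wild-type libraries also spread. On the lower side, the kynureninase gene TRIREDRAFT_44628, for tryptophan breakdown, had 21.1, 29.6 and 5.94 CPM in Δvps13 against 24.6, 27.6 and 24.2 CPM in wild type.

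The kinesin gene TRIREDRAFT_55060, for a microtubule motor, had 76.1, 62.6 and 17.2 CPM in Δvps13 against 59.6, 71.8 and 57.3 CPM in wild type. An aldehyde dehydrogenase gene, TRIREDRAFT_54525, and a gene for a G-protein coupled receptor, TRIREDRAFT_81383, were both at -1.78 log2 units in replicate 3. The list of cell cycle, DNA replication and cytoskeleton genes, 56 tested, had medians of 0.24, -0.01 and -0.47 in Δvps13 replicates 1, 2 and 3, and 12 genes 2-fold lower in replicate 3. Its 1 call was the tubulin cofactor B gene TRIREDRAFT_119767, a tubulin folding factor, at 8.50, 7.52 and 11.5 CPM in Δvps13 against 27.4, 20.2 and 20.8 CPM in wild type (-1.32 ± 0.28, edgeR adjusted p = 0.0435). That call was lost without Δvps13 replicate 2 (adjusted p = 0.138) and without wild-type replicate 1 (0.213), 2 (0.219) or 3 (0.191).

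**Figure D5:**
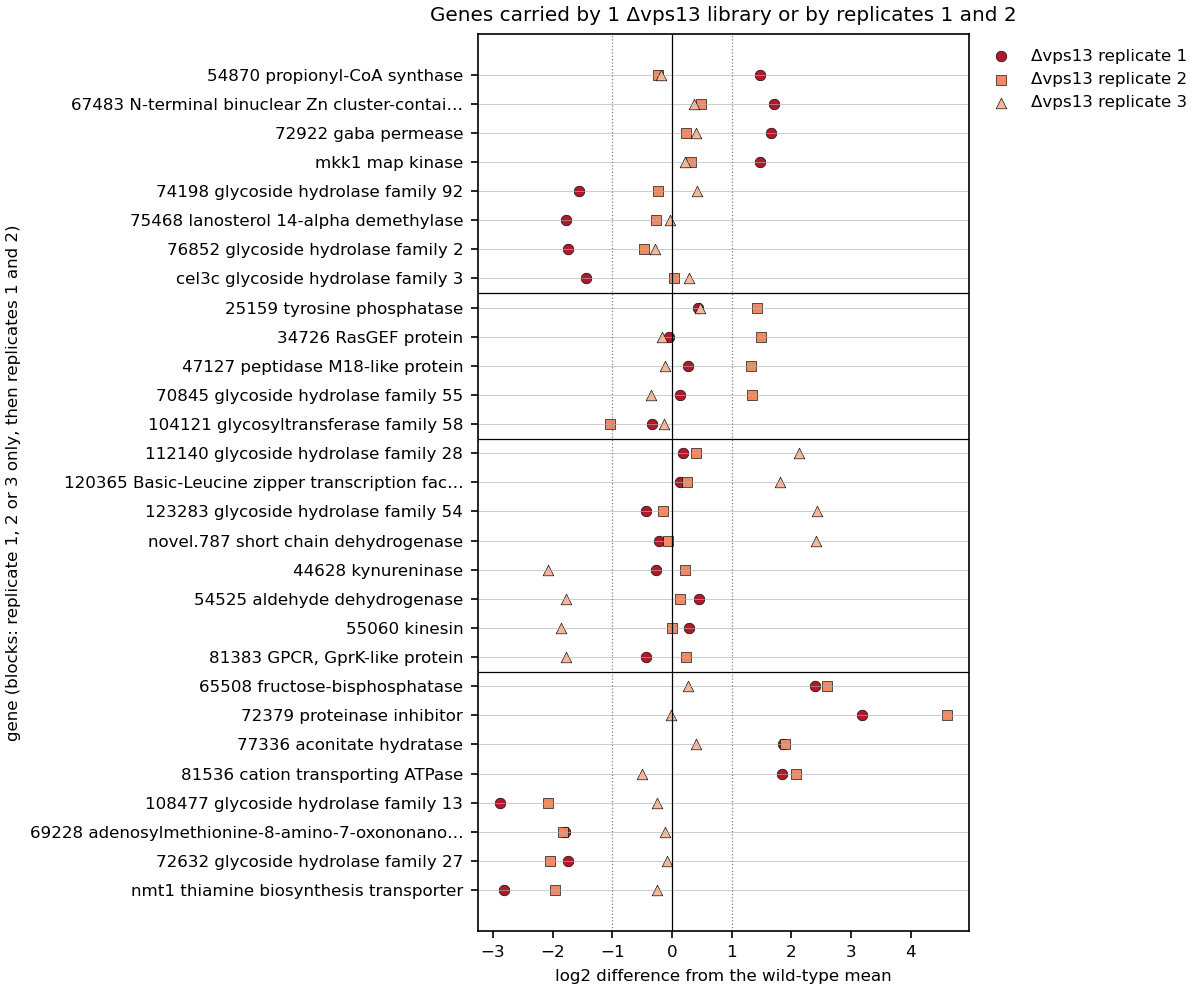
Log2 difference from the wild-type mean (horizontal axis) in each Δvps13 library, for the named genes carried by replicate 1, 2 or 3 alone and, in the lowest block, by replicates 1 and 2. Dotted lines mark 2-fold. The carrying library or pair stands past a dotted line and the others lie within 0.5 of 0, as the rule that chose these genes fixes.

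Opposite movements were mostly between replicate 3 and the others. Of the 214 genes of this kind, 93 were higher in replicate 1 and lower in replicate 3, and 72 the other way round. Between replicates 2 and 3 there were 54 higher in 2 and lower in 3, and 36 the other way round. The gene tr42600, described as 4-hydroxyphenylpyruvate dioxygenase (tyrosine breakdown), had 99.3, 153 and 2.97 CPM in Δvps13 against 54.2, 30.5 and 31.5 CPM in wild type. Its mean over the group, 85.2 ± 76.1 CPM in Δvps13 and 38.7 ± 13.4 CPM in wild type (SD, n = 3 each), describes none of the 3 libraries. The gene was picked after its values were seen.

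The remaining lists gave few calls, as did the tested genes as a whole (3.42%). In redox defence, 19 genes tested, the superoxide dismutase above was the 1 call (1 higher and 2 lower in DESeq2). A flavohemoglobin gene, TRIREDRAFT_76722, for nitric oxide detoxification, had 1312, 2996 and 5082 CPM in Δvps13 against 789, 734 and 880.5 CPM in wild type (1.97 ± 0.50, edgeR adjusted p = 0.0686) and was picked after its values were seen. Iron uptake, 6 genes, gave the ferric reductase-like gene alone, and the list's medians by library were -0.81, 0.19 and 0.63. Both of these calls, and the others of this paragraph, were lost without Δvps13 replicate 2 and without wild-type replicate 1, 2 or 3. Sugar transporters, 12 tested, gave 1 call, the galactose permease gene TRIREDRAFT_106556, at 6.90, 15.6 and 5.94 CPM in Δvps13 against 1.39, 1.19 and 2.49 CPM in wild type (2.49 ± 0.50, edgeR adjusted p = 0.0395). Its fellow member hxt1, a glucose transporter gene, had 51.7, 126 and 283 CPM in Δvps13 against 479, 861 and 981 CPM in wild type, with no overlap but a wide spread (-2.33 ± 0.59, edgeR adjusted p = 0.0682). Proteases, 31 tested, gave the caspase-family gene TRIREDRAFT_60676 (a kind of protease linked to cell death), at 887, 1185 and 916 CPM in Δvps13 against 333, 281 and 326 CPM in wild type (1.67 ± 0.27, edgeR adjusted p = 0.0254). More proteases were lower than higher short of that test, with 3 higher and 7 lower at an unadjusted p under 0.05. DESeq2 called 1 higher and 4 lower, and the list's medians by library were -0.12, -0.09 and -0.32. Heat shock proteins and chaperones, 8 tested, gave a cytoplasmic cyclophilin gene, TRIREDRAFT_121977, at 238, 344 and 428 CPM in Δvps13 against 850.1, 896 and 834 CPM in wild type (-1.35 ± 0.30, edgeR adjusted p = 0.0475, and 0.0523 with median-ratio size factors). The list as a whole went the other way, with medians of 0.04, 0.49 and 0.76 in Δvps13 replicates 1, 2 and 3. It had 3 higher and 1 lower at an unadjusted p under 0.05, and 2 and 1 in DESeq2.

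Chitin and beta-1,3-glucan enzymes, 48 tested, gave 0 genes higher and 2 lower (3 and 5 at an unadjusted p under 0.05, 4 and 5 in DESeq2), with 1 lower call without Δvps13 replicate 1 and 0 calls without Δvps13 replicate 2 and without any 1 wild-type library. The chitinase gene chi18-16 had 0.192, 0.354 and 0.950 CPM in Δvps13 against 3.42, 2.24 and 3.62 CPM in wild type. The family 55 gene TRIREDRAFT_54242 had 0.639, 0.796 and 1.31 CPM in Δvps13 against 3.74, 3.64 and 6.57 CPM in wild type. Both were low in every library of either strain, at -2.73 ± 0.60 and -2.37 ± 0.46 log2 units (edgeR adjusted p = 0.0468 and 0.0385). The lists for secondary metabolism (17 tested), the proteasome (13), mitochondrial respiration (7), drug transporters (4) and autophagy (1) gave 0 calls in edgeR. At an unadjusted p under 0.05 they had 6, 3, 1, 0 and 0 genes, and DESeq2 called 3 in secondary metabolism and 0 in the others.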

How the data were processed

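Mycelial mRNA of Δvps13 and of the parent Rut-C30 was sequenced, 3 libraries each; the other 3 libraries of the series entered only 1 alternative fit. The authors aligned reads with HISAT2 2.0.5 and counted them per gene with featureCounts 1.5.0-p3, per the submitters' processing notes; the genome build, annotation and strand setting were not given in the sources used here. The deposited table holds whole-number counts per gene, used for all main results, and 0 of its columns were left unmapped. The authors' deposited FPKM values, which scale reads by gene length and depth, served 1 alternative, as log2(FPKM + 1).

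Genes were filtered with edgeR 4.0.16 (filterByExpr, minimum count 10) in R 4.3.3, scaled by TMM and fitted with the quasi-likelihood test, with Benjamini-Hochberg adjustment over all 8718 genes and a threshold of 0.05. The fit had 4 residual degrees of freedom and a common biological coefficient of variation of 0.328. CPM are TMM-scaled, and the differences of single libraries use log2 CPM with a prior count of 2. limma 3.58.1 and DESeq2 1.42.0 gave alternatives. The edgeR step was tested on simulated data.

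The comparison, 25 gene lists and tests were chosen with earlier results of these data known. Lists were built from deposited names and descriptions. Of the genes in the table, 7046 are described only as predicted protein. Named genes are the 10 described genes called in each direction, at 10 CPM or more in a group, whose smallest difference over the 3 Δvps13 libraries was largest, with the top 2 of any description. To these were added up to 4 described genes per direction for each single-library pattern and for replicates 1 and 2, up to 3 called genes per list, and known cellulase, regulator and secretion genes. The other genes named (among them the remaining cellulase and hemicellulase genes, cip1, hydrophobins, nitrogen and sugar transporters, chitinases and carbon metabolism genes outside that rule) were chosen after their values were seen.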

Additional observations from a re-analysis of the deposited data

How the results depend on the processing

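Against 154 higher and 144 lower genes in edgeR on the 6 libraries, DESeq2 called 564 and 451, limma voom with sample quality weights 1899 and 1973, edgeR on all 9 libraries 503 and 423, and scaling by library totals 63 and 452. The voom weights were 0.206, 2.68 and 0.197 for Δvps13 replicates 1, 2 and 3 and 1.09 to 3.34 for wild type, so that fit rests on Δvps13 replicate 2. Leaving out 1 library gave 0 to 1338 higher and 0 to 1354 lower genes. Over the list members, 20 higher and 14 lower calls became 75 and 44 in DESeq2, 69 and 39 with all 9 libraries, and 0 to 123 and 0 to 98 with 1 library left out; library totals gave 48 lower. Genes past 2-fold in all 3 Δvps13 libraries, 131 higher and 234 lower, became 64 and 541 with library totals, 79 and 108 with a 10 CPM filter, and 387 and 557 with a 1.5-fold limit. Those carried by replicate 1, 2 or 3 alone (350, 99 and 263) became 215, 50 and 163 with the 10 CPM filter and 972, 415 and 738 with the 1.5-fold limit. Under library totals the log2 fold changes of TRIREDRAFT_123015 and cre1 turned to -0.11 and -0.05. The causes were not tested. With the replicate number as a block, 127 genes were higher and 141 lower. Deviations of same-numbered libraries correlated at 0.0997, 0.0877 and 0.15, each the highest for its Δvps13 library, and nothing in the labels pairs them. Of 37 named called genes, all kept their call in DESeq2, voom and the fit with all 9 libraries, and 5 lost it under the block: idh2 (adjusted p = 0.0714), mata1 (0.0728), TRIREDRAFT_121754 (0.0545), TRIREDRAFT_119767 (0.0537) and TRIREDRAFT_121977 (0.0516).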
